A study of Mus musculus with 15 samples.

Results

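The material described here is the RNA of irradiated mouse splenocytes that served as antigen-presenting cells (APC), set against the RNA of helper T cells that were activated by antibodies with no splenocytes present. The members were chosen by the sample titles: 3 arrays are titled APC alone, with 1 array per cytokine cocktail (Th1, Th9 or Th17), and 6 are titled PBAB, with 2 arrays per cocktail. They are 9 of the 15 arrays of the series. The other 6, called HA, came from cultures in which T cells and splenocytes were mixed, and their values are given here without a test.

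The T cells were naive CD4 cells sorted from 3A9 mice, whose transgenic receptor recognises hen egg lysozyme (HEL). PBAB stands for plate-bound antibodies, here against CD3 (coated at 1 µg/ml) and against CD28 (10 µg/ml). HA cultures received HEL instead, at 1 µg/ml for Th9 and 2 µg/ml for Th1 and Th17, together with splenocytes from syngeneic wild type naive animals, irradiated with 30 Gy. To make Th1 cells, IL-12 (10 ng/ml) was added, and IL-4 was blocked with 10 µg/ml of antibody. Th9 cells were made with 10 ng/ml of IL-4 together with 1 ng/ml of TGF-beta. Th17 cells were made with 3 ng/ml of TGF-beta, 10 ng/ml of IL-6 and 5 ng/ml of IL-1alpha, while 20 µg/ml of antibody blocked IFN-gamma and 10 µg/ml each blocked IL-4 and IL-12. RNA was taken at day 4, and 500 ng of it was labelled for every array. The labels do not define the content of APC alone further: they call the source of every array CD4+ T cells, give its strain as 3A9 and its cell type as a Th culture. Animal ages and pooling were not given in the sources used here. Levels are log2 values after RMA (robust multi-array average), a procedure that corrects background and summarises the probes of each probe set, so a difference of 1 is 2-fold. Each gene is read from 1 probe set. The PBAB replicates are called biological, with no animal or culture named, so p-values measure only the spread between these samples.

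Splenocytes are a mixture of B cells, T cells, macrophages, dendritic cells, natural killer cells and a scaffold of stromal cells. A radiation dose of this order stops lymphocytes from dividing and kills most of them within days, whereas resting macrophages are far more resistant and clear the dying cells, whose iron, haem and lipids they then handle. A T cell activated through CD3 and CD28 does the opposite: it grows, takes up glucose and amino acids, makes sterols and divides. Macrophages also respond to cytokines, and IL-4 is the classical inducer of a set of genes that includes Arg1, Retnla and Chil3.

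The 3 APC alone arrays stood apart from the PBAB arrays as arrays, before any gene was considered. Across probe sets they correlated with each other at 0.936 to 0.943 and with PBAB arrays at 0.615 to 0.727, while PBAB replicates of a cocktail correlated at 0.988 to 0.989 (a description across probe sets, which are not independent). Their values spanned less: the interquartile range of an array was 2.02 to 2.09 on the log2 scale, against 3.02 to 3.48 in PBAB. RNA integrity was read from control genes, first from actin, as the level of the 3' probe set minus that of the 5' probe set, which usually grows when RNA is broken or amplified short. The difference was 0.99, 0.74 and 0.92 in the Th1, Th9 and Th17 arrays of APC alone and 0.12 to 0.28 in the 6 PBAB arrays, with no overlap. The means differed by 0.676 (exact permutation test over arrays, two-sided, p = 0.0238, the smallest that 3 against 6 arrays can give, and 0.0476 after Benjamini-Hochberg adjustment over 2 tests). For Gapdh the same measure differed by 0.146 (exact permutation p = 0.167, adjusted 0.167), with 0.11, -0.25 and -0.17 in APC alone and -0.31 to -0.16 in PBAB. The control probe sets for the transferrin receptor ran the other way: 3' minus 5' was 1.98, 0.76 and 1.23 in APC alone and 2.25 to 2.81 in PBAB (mean difference -1.09, not tested). The 3 controls therefore do not give 1 direction, and of them only actin was higher in APC alone without overlap. The transferrin receptor gene itself, Tfrc, was lower in APC alone (-2.66), and its part in this measure was not tested. When the arrays were quantile normalized again, the Gapdh measure differed by 0.266 (exact permutation p = 0.0238). The mean of the 18S ribosomal RNA probe sets was 8.60 to 8.82 in APC alone and 9.98 to 11.45 in PBAB. The mean of the probe sets of the spiked control bioB was 13.71 to 14.01 in APC alone and 9.49 to 11.05 in PBAB. On each of these measures except that of Gapdh, the groups did not overlap.

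A further measure was the level of genes that are not known for a role in splenocytes or T cells. The 71 smell and pheromone receptor genes on the array, which belong to sensory neurons, had a median level of 5.36 to 5.50 in APC alone and 4.08 to 4.31 in PBAB. Their 95th percentile averaged 7.60 in APC alone and 5.73 in PBAB. This percentile is called the receptor background below, and it was adopted after the data had been seen. The level of Vmn1r148, a pheromone receptor gene, averaged 10.52 in APC alone. The part of RNA quality and of this raised background in the differences below was not tested. For most gene groups with higher calls, the number of these above the receptor background is given.

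**Figure D1:**
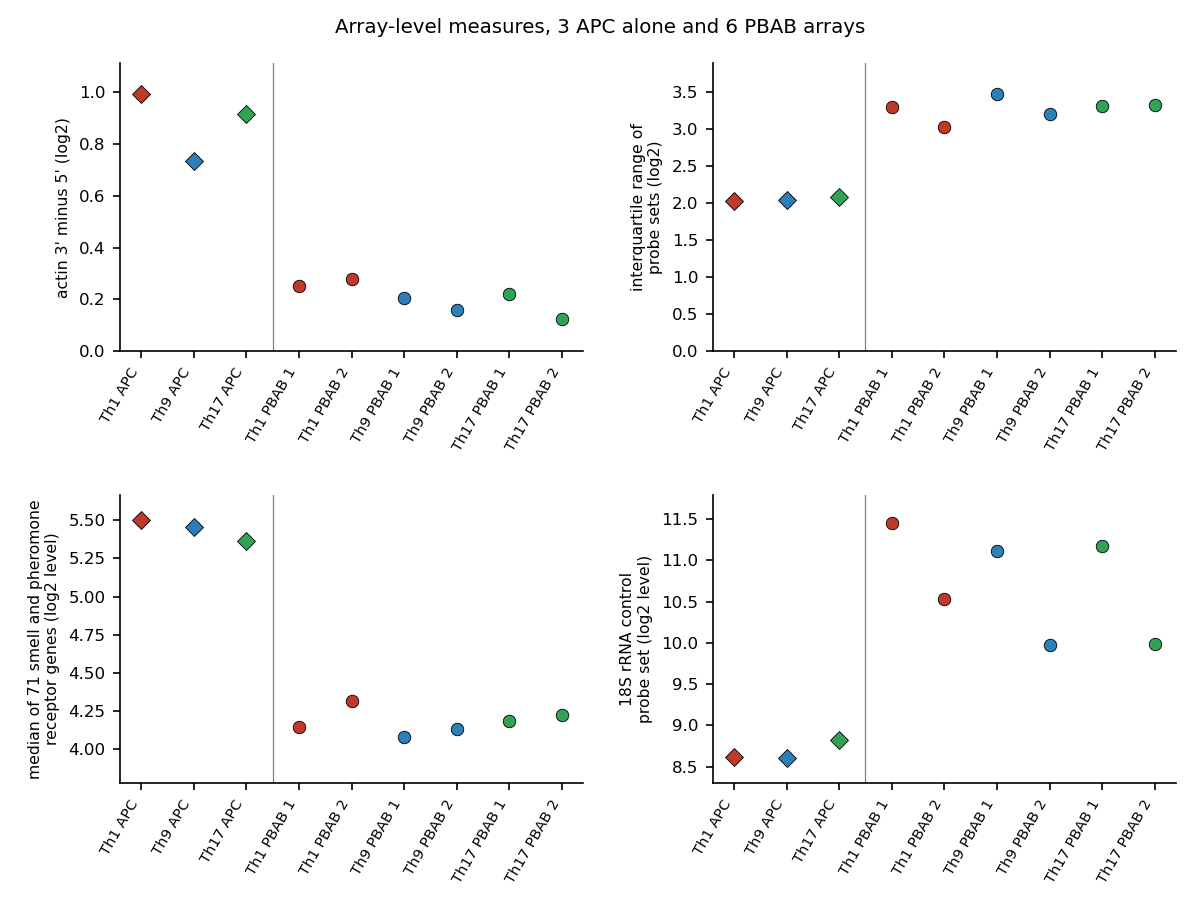
Array-level measures in the 3 APC alone arrays (diamonds) and 6 PBAB arrays (circles), coloured by cocktail: actin 3' minus 5', the interquartile range of all probe sets, the median of 71 smell and pheromone receptor genes and the 18S control, all on the log2 scale. In each panel the APC alone arrays lie on one side of all PBAB arrays, with actin 3' minus 5' at 0.74 or more against 0.28 or less.

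The first comparison asks how irradiated splenocytes and antibody-activated T cells differ at day 4. Genes were tested if their level passed 5.07, the 40th percentile of all values, in at least 3 of the 9 arrays. Of 14692 genes tested, 7388 (50.3%) were called, that is, differed by more than 2-fold with a Benjamini-Hochberg adjusted p under 0.05 in limma's treat test. Of these, 2169 (14.8% of genes tested) were higher and 5219 (35.5%) were lower in APC alone. The 3 APC alone arrays and the 6 PBAB arrays did not overlap in 11768 genes (80.1%). Where a count of gene group members follows, these shares are the background to read it against. Of the genes tested, 1764 passed the filter through 1 of the groups only and so had to differ. In lists for which no such number is given it was 0 to 2. The median difference over all genes tested was -0.50, and it moved to -0.09 when the arrays were quantile normalized again and to -0.92 when each array was centred on its median. Of the calls, 29.4% were higher as deposited, 42.0% after the new quantile normalization and 14.4% after centring. No gene called one way was called the other way after the new quantile normalization. Centring lowered every difference by the same 0.42, so it could not turn a call into the opposite one. A total of 722 higher calls (4.91% of genes tested) had an APC level above the receptor background of APC alone (7.60). For lower calls the PBAB level was set against the receptor background of PBAB (5.73), and 5210 (35.5%) were above it. The 2 cut-offs differ, and a lower call itself needs a raised PBAB level, so these 2 counts cannot be compared with each other. Fewer cells of a type and less RNA per cell cannot be told apart in these samples.

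**Figure D2:**
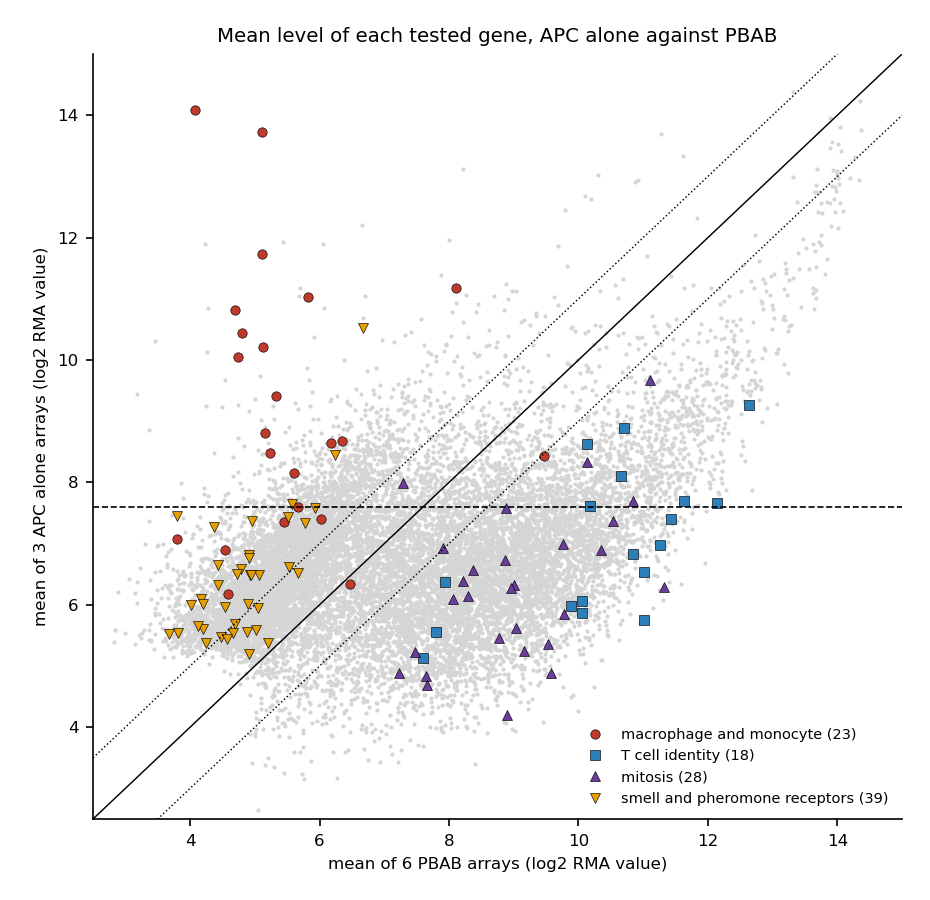
Mean of the 3 APC alone arrays against the mean of the 6 PBAB arrays for each of 14692 genes tested (log2 RMA values), with 4 gene groups marked, the line of equality, dotted lines at a 2-fold difference and the receptor background of APC alone as a dashed line. Macrophage genes lie mostly in the upper left, T cell identity and mitosis genes lie mostly at the lower right, and the smell and pheromone receptor genes lie above the line of equality but mostly below the dashed line.

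Macrophage genes were higher in APC alone. Of 25 macrophage and monocyte genes on the array 23 were tested, 21 of them were called higher and the other 2, Cebpb and Aif1, were not called. The median difference was 3.24 against -0.50 over all genes tested, and 4 of the 23 had passed the filter through 1 group only. An APC level above the receptor background was reached by 15 of the 21. Lyz2, which encodes the lysozyme of macrophages and granulocytes, read 13.55, 13.85 and 13.79 in the Th1, Th9 and Th17 arrays of APC alone. In the 6 PBAB arrays it ran from 4.46 through a median of 5.07 to 5.73. The groups lay far apart, a 395-fold difference (8.63 ± 0.24 SE on the log2 scale, adjusted p = 6.6e-09). Lyz1, its close paralogue, stood at 14.07 to 14.09 in APC alone and at 3.62 to 5.31 in PBAB, so it was at least 501-fold higher. Because its PBAB mean lay below the threshold for testing, 5.07, that fold is a lower bound, with each array value below the threshold raised to it. With all Lyz1 probe sets averaged, its difference was 6.76 on the log2 scale. The 2 genes are similar in sequence, and how much each probe set reads of the other is uncertain.

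Surface receptors of these cells followed. Csf1r, the receptor for the growth factor macrophages depend on, read 10.67, 11.50 and 10.93 in APC alone, against a lowest, median and highest value of 5.20, 5.76 and 6.52 in PBAB. It was 36.9-fold higher (5.21 ± 0.29, adjusted p = 2.4e-07; 3.28 when all its probe sets were averaged). Fcgr3, an activating receptor for IgG, was higher by 5.08 ± 0.25 and Clec7a, the beta-glucan receptor dectin-1, by 6.61 ± 0.38. Clec7a was not alike in the 3 arrays: it read 13.04 in the Th9 array and 11.10 and 11.05 in the Th1 and Th17 arrays. Tyrobp, the signalling adaptor of many myeloid receptors, Mpeg1, a pore-forming protein of phagocytes, and Clec4n, the receptor dectin-2, had PBAB means below the threshold. They were at least 49.2-fold, 40.3-fold and 31.3-fold higher.

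Cd68, a lysosomal protein of macrophages, read 11.06, 11.24 and 11.23 in APC alone but also 6.96 to 8.91 in PBAB, and was higher by 3.07 ± 0.40 (adjusted p = 0.00047). Adgre1, the F4/80 antigen by which spleen macrophages are usually recognised, read 6.27, 5.58 and 6.70 in APC alone and 4.03 to 4.95 in PBAB, all under the receptor background of APC alone. Its difference of 1.59 ± 0.27 (adjusted p = 0.047) was no longer called in 12 of the alternatives, among them the 2 other scalings (1.36 and 1.17) and the omission of the Th1 (1.54) or the Th17 (1.33) array of APC alone. Itgam and Cd163, also macrophage genes, were not above the threshold in enough arrays to be tested.

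Genes outside the marker list with large differences included secreted proteins of macrophages. Cd5l, which supports macrophage survival and binds lipids, read 12.79, 10.52 and 12.39 in APC alone and 5.72 to 6.52 in PBAB (5.84 ± 0.41 higher, adjusted p = 7.7e-07). Wfdc17, a protein with a protease-inhibitor domain, was higher by 5.47 ± 0.21 and Ccl6, a chemokine of myeloid cells, by at least 113-fold. Mgst1, a membrane-bound glutathione transferase, was higher by at least 37.7-fold (3.53 on the log2 scale with all probe sets averaged). Among the 10 largest differences with both group means above the threshold stood 3 genes with clone or prediction names, 4933438K21Rik, Gm13238 and Gm9222, higher by 5.54, 5.37 and 4.90. No function is given for them here.

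**Figure D3:**
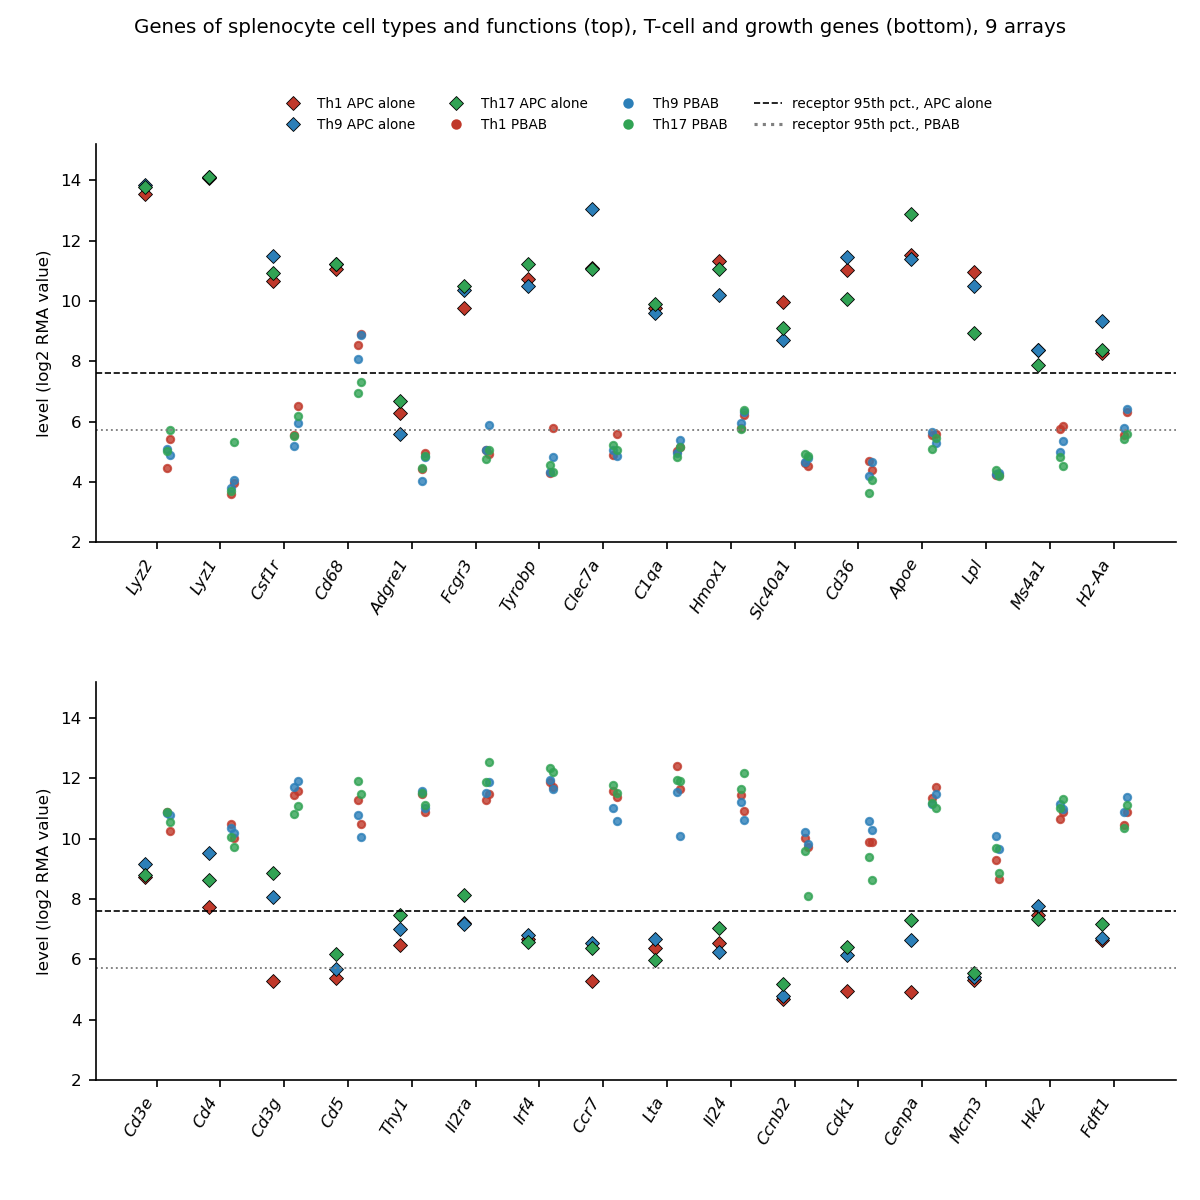
Level of 32 named genes in each of the 3 APC alone arrays (diamonds) and 6 PBAB arrays (circles), coloured by cocktail, with the receptor background of APC alone (dashed) and of PBAB (dotted). In the upper panel Lyz2 sits at 13.55 or more in APC alone and at 5.73 or less in PBAB, while Adgre1 stays under the dashed line. In the lower panel Cd3g of APC alone reads 5.28 in the Th1 array, below the other 2 arrays.

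Genes for tasks of phagocytes were higher as well. Of 8 complement genes tested, 4 of which passed the filter through 1 group only, 5 were called and all 5 were higher and above the receptor background (median difference 2.33). C1qa, C1qb and C1qc, the 3 chains of the C1q recognition molecule that tags dying cells, were all called higher. C1qa read 9.75, 9.59 and 9.89 in APC alone and 4.83, 5.09 and 5.39 as the lowest, median and highest value in PBAB (4.66 ± 0.16 higher, adjusted p = 5.4e-08). The groups did not overlap. With PBAB means below the threshold, C1qb was at least 13.8-fold and C1qc at least 24.2-fold higher. C3ar1, the receptor for the C3a fragment, was at least 7.08-fold higher.

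In lipid handling 9 of 14 genes tested were called, all higher (median 1.81), and 8 of the 9 were above the receptor background. Apoe, the apolipoprotein by which macrophages export cholesterol, read 11.51, 11.40 and 12.88 in APC alone and 5.08 to 5.67 in PBAB, a 90.0-fold difference (6.49 ± 0.29, adjusted p = 9.0e-08). Cd36, a scavenger receptor for oxidised lipids and apoptotic cells, was at least 54.8-fold higher and Lpl, lipoprotein lipase, at least 33.3-fold. Lpl varied with the cocktail, at 10.96 in the Th1 array, 10.50 in the Th9 array and 8.93 in the Th17 array. Nr1h3, the oxysterol sensor LXR-alpha that drives such genes, was higher by 2.04 ± 0.18 (3.16 after new quantile normalization).

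For iron and haem the median difference was 0.32 (-0.09 when arrays were centred), with 3 of 10 genes tested higher and 1 lower. The 3 were high in all APC alone arrays. Hmox1, haem oxygenase 1, which opens the haem ring, read 11.33, 10.18 and 11.05 in APC alone and 5.77 to 6.38 in PBAB (4.78 ± 0.25 higher, adjusted p = 2.0e-07). Slc40a1, the iron exporter ferroportin, was at least 18.2-fold higher and Slc11a1, the divalent metal transporter of the phagosome, was higher by 3.35 ± 0.20. The 1 gene that was lower was Tfrc, the transferrin receptor of dividing cells, at 8.74, 9.90 and 8.62 against 11.39 to 12.05 (-2.66 ± 0.27). That call was lost on new quantile normalization (-0.80). Lysosomal genes had 9 of 19 tested members higher and 2 lower (median 1.40, 8 above the receptor background), or 15 higher and 1 lower after new quantile normalization. They included Ctsh, a cathepsin with aminopeptidase activity (at least 17.9-fold higher), and Gpnmb, a glycoprotein of lipid-loaded macrophages (4.35 ± 0.17, or 2.88 with all probe sets averaged). Ctsb and Ctsd, cathepsins that PBAB cells also made at 11.02 to 11.55 and 9.99 to 10.52, were higher by 2.42 ± 0.17 and 2.44 ± 0.16.

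Of 14 chemokine genes tested, 4 of which passed the filter through 1 group only, 6 were called, all higher (median 1.54), with 4 of them above the receptor background. Beside Ccl6 these included Cxcl16, a membrane-bound chemokine and scavenger receptor (2.48 ± 0.26), and Cxcl1, a neutrophil attractant (2.03 ± 0.23). After new quantile normalization these came to 3.99 and 3.55. Toll-like receptors and their partners gave 4 higher and 1 lower of 10 tested (median 1.11), and among the higher ones only Ly86, the partner of Cd180, was above the receptor background (at least 6.03-fold higher). Myd88, the adaptor of most Toll-like receptors, was the member that was lower (-2.11 ± 0.23, -1.44 and not called after new quantile normalization). Of the genes for antigen presentation on MHC class II, 2 of 8 tested were higher and 2 lower, or 4 and 1 after new quantile normalization. H2-Aa, an alpha chain, read 8.26, 9.35 and 8.36 in APC alone and 5.42, 5.69 and 6.43 as the lowest, median and highest value in PBAB (2.80 ± 0.30, adjusted p = 0.00013). Ciita, the master regulator of the class, was at least 3.32-fold higher at a level under the receptor background. H2-Oa and H2-DMa, which tune peptide loading, were lower (-2.44 ± 0.27 and -2.16 ± 0.47), and the latter call was lost in 8 of the alternatives.

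Other splenocyte types left fewer genes above the receptor background. B cells, which abound in the spleen, had 8 of 14 tested markers called, all higher (median 1.52; 4 of the 14 passed the filter through 1 group only), and of the 8 only Ms4a1, which encodes CD20, was above it. Ms4a1 read 8.39, 8.37 and 7.87 in APC alone and 4.52 to 5.86 in PBAB (2.99 ± 0.29, adjusted p = 5.3e-05, or 1.92 with all probe sets averaged). Cd79a, the signalling chain of the B cell receptor, was at 6.60, 5.81 and 6.07 against 4.89 to 5.29 and was not called (1.09 ± 0.19, adjusted p = 0.48). Blnk, an adaptor of B cells, and Fcer2a, a surface receptor, were at least 3.65-fold and 3.21-fold higher, and Cd22, another surface receptor, was higher by 1.85 (1.29 and not called with all probe sets averaged). All 3 stayed under the receptor background. Of 4 plasma cell genes tested the 1 call was Xbp1, a secretory transcription factor that T cells also use, which was lower (-3.10 ± 0.21, or -1.27 and not called after new quantile normalization).

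Of 11 neutrophil markers tested, 6 of which passed the filter through 1 group only, 7 were called, all higher (median 1.68), with 1 above the receptor background. That gene was Mmp8, neutrophil collagenase, at 7.65, 7.94 and 8.90 against 4.53 to 5.03 (at least 8.51-fold higher). For megakaryocytes and platelets 3 of 6 tested genes were higher, all above it: Pf4, platelet factor 4, by 3.92 ± 0.44 (3.12 without the Th17 array of APC alone), Treml1 by 1.93 and Gp1bb by 1.78. The Gp1bb call was lost when arrays were centred (1.36) or probe sets averaged (1.16). Stromal genes were higher in 8 of 10 tested (median 1.82), with 4 above it and 3 that passed the filter through 1 group only. These included the matrix genes Fn1 (2.90 ± 0.18), Col1a2 (2.49 ± 0.17) and Bgn (2.47 ± 0.17, or 3.81 after new quantile normalization).

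Of 12 dendritic cell markers tested 2 were higher (16.7%) and 4 lower (33.3%), near the shares over all genes tested (14.8% and 35.5%). Itgax, which encodes CD11c, read 6.81, 8.23 and 6.68 in APC alone against 4.93 to 5.19, at least 4.39-fold higher. Both higher members had APC means under the receptor background. The lower members Ccr7, Batf3, Cd83 and Irf8 are genes that activated T cells express too. Of 9 natural killer markers tested, limma's treat test called 0 (1 at an unadjusted p under 0.05), and limma with no minimum fold called 4 higher and 1 lower. Of 5 erythroid markers treat called 0 (0 at an unadjusted p under 0.05), and the fit with no minimum fold called 4 higher. Endothelial markers gave 2 higher of 7 tested, Cdh5 and Kdr, both under the receptor background and neither called once arrays were centred (1.32 and 0.98). The smell and pheromone receptor genes themselves, of which 20 of 39 tested passed the filter through 1 group only, had 25 called higher (64.1%, median 1.57), 3 of them above the background. For B cell and neutrophil markers the shares called higher were 57.1% and 63.6%.

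**Figure D4:**
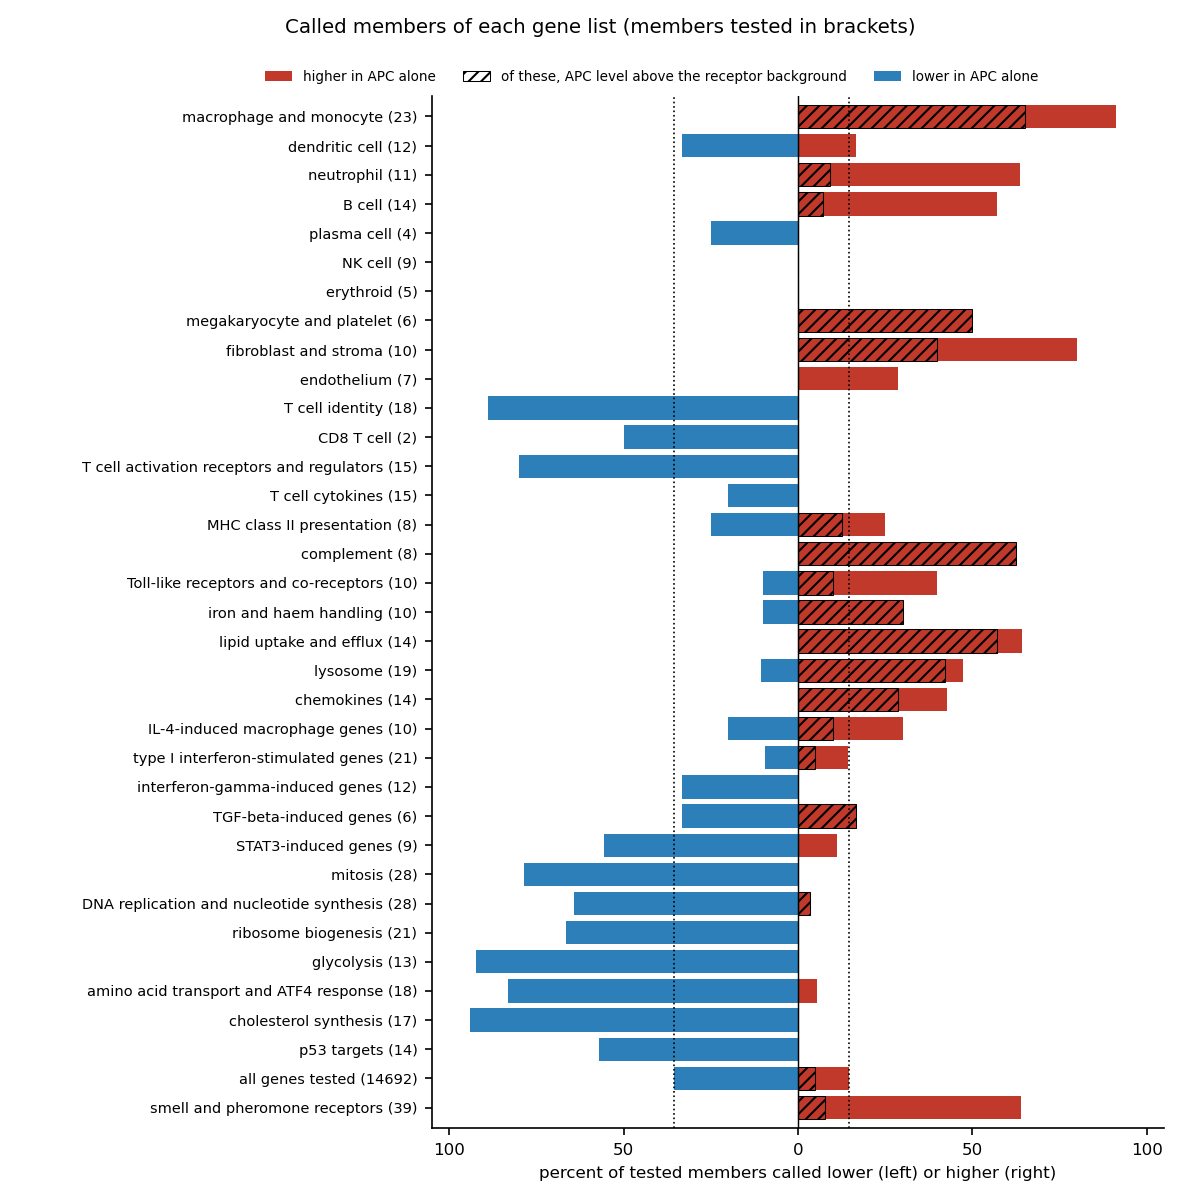
Percent of tested members of each gene list called higher (red, right) or lower (blue, left) in APC alone, with the part of the higher calls whose APC level exceeded the receptor background hatched, and dotted lines at the shares over all genes tested (14.8% and 35.5%). Macrophage, complement and lipid genes extend to the right mostly hatched, the smell and pheromone receptors extend to the right mostly unhatched, and T cell and growth lists extend to the left.

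Genes of T cell identity were lower in APC alone in 16 of 18 tested, with a median difference of -3.92, and Cd4 and Trat1 were not called. After new quantile normalization 11 were lower and the median was -2.91. Zap70 and Cd247, a kinase and a chain of receptor signalling, were among the 16, but each had another probe set with a difference of the other sign (2.25 and 1.80, not tested). Cd5, a surface regulator of receptor signalling, read 5.40, 5.67 and 6.18 in APC alone and 10.07, 11.04 and 11.92 as the lowest, median and highest value in PBAB (-5.26 ± 0.36, adjusted p = 8.6e-07). Thy1, a surface glycoprotein of T cells, was lower by -4.28 ± 0.24 and Lat, the scaffold that links the receptor to its pathways, by -3.92 ± 0.18 (-2.45 after new quantile normalization). Skap1, an adaptor for integrin activation, was lower by -3.91 ± 0.23, or -1.46 with all its probe sets averaged.

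The defining genes Cd3e and Cd4 were not absent from APC alone. They belong to the 18 T cell identity genes, of which 6, 4 and 10 were above the receptor background in the Th1, Th9 and Th17 arrays. Others of the 18, such as Cd5 and Skap1, stayed under it in all 3 arrays. Cd3e, a chain of the receptor complex, read 8.72, 9.16 and 8.78 in APC alone, above the receptor background, and 10.26 to 10.90 in PBAB. It was called lower (-1.82 ± 0.19, adjusted p = 0.0014), but the difference turned to 0.08 after new quantile normalization. Cd4 read 7.73, 9.51 and 8.63 in APC alone and 9.72 to 10.47 in PBAB, and was not called (-1.51 ± 0.32, adjusted p = 0.12). It differed by 0.20 after new quantile normalization, but was called lower with arrays centred (-1.93), without the Th9 array of APC alone (-1.96) and in 3 other alternatives. Cd4 is also made by some dendritic cells of mice. Ptprc, which encodes the leukocyte antigen CD45, was lower by -3.23 ± 0.27, or by -1.46 with no call after new quantile normalization. Cd8a, which marks CD8 T cells, read 4.28 to 4.70 in APC alone, overlapped PBAB and was not called, and Cd8b1 was called lower (-1.51 ± 0.23), a call lost in 14 of the alternatives. The labels' source for the APC alone arrays, CD4+ T cells, thus stands beside 16 of 18 T cell genes lower than in PBAB and 21 of 23 macrophage genes higher.

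Genes switched on by T cell activation were lower in 12 of 15 tested, and the other 3 were not called (median -3.30; 7 lower and -1.60 after new quantile normalization). Irf4, a transcription factor induced in proportion to receptor signal, read 6.68, 6.80 and 6.58 in APC alone and 11.65, 11.90 and 12.35 as the lowest, median and highest value in PBAB. This 38.6-fold difference (-5.27 ± 0.18, adjusted p = 5.3e-08) was the largest among lower genes with both means above the threshold. Il2ra, the high-affinity chain of the IL-2 receptor, was lower by -4.26 ± 0.29. Cd69, an early activation antigen, was lower by -4.58 ± 0.27 and Pdcd1, the inhibitory receptor PD-1, by at least 8.31-fold. Ccr7, which guides T cells to lymph nodes, Sh2d1a, the adaptor SAP, and Crem, a repressor of cAMP targets, were lower by -5.24, -5.26 and -5.21. With all probe sets averaged Crem differed by -2.07.

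Other genes with large differences were not in the lists. Smc5, of a complex for DNA repair, Ppp2r5c, a regulatory subunit of a phosphatase, and Slc44a2, a choline transporter-like protein, were lower by -5.26, -5.20 and -5.03. Mllt3, of a transcription elongation complex, was at least 36-fold lower, at 4.54, 4.55 and 4.90 in APC alone and 10.06 to 10.54 in PBAB. Plscr1, a phospholipid scramblase, Aldh18a1, which makes a precursor of proline, and Prpf4b, a kinase of the splicing machinery, were at least 28.7-fold, 26.5-fold and 22.4-fold lower. Gpr171, a G protein-coupled receptor, Dnajc21, a co-chaperone of ribosome assembly, and A430093F15Rik were at least 27.9-fold, 24.6-fold and 30.3-fold lower. With all probe sets averaged the differences of Mllt3, Ppp2r5c and Dnajc21 were -2.71, -1.55 and -1.53, and those of Smc5, Slc44a2, Plscr1, Aldh18a1 and Prpf4b lay between -3.49 and -3.10.

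Of 15 cytokine genes tested 3 were called, all lower (20%, against 35.5% of all genes tested). Lta, lymphotoxin alpha, read 6.39, 6.66 and 5.97 in APC alone and 10.09, 11.78 and 12.42 as the lowest, median and highest value in PBAB (-5.25 ± 0.41). Il24, a cytokine of the IL-10 family, was lower by -4.72 ± 0.31. Tnf, which macrophages make too, was lower by -1.53 ± 0.21, and the call was lost in 9 of the alternatives. The lineage cytokines depend on the cocktail in PBAB, so their spread over the 6 PBAB arrays was wide. Ifng, the Th1 cytokine, stood at 4.04, 3.92 and 4.01 in APC alone and at 3.32 to 13.21 in PBAB (-4.29 ± 1.96, adjusted p = 0.13, or 0.023 with the cocktail as a covariate). Il9, the Th9 cytokine, read 6.72, 6.41 and 6.04, inside the PBAB range of 4.92 to 10.52, and was not called. In PBAB it was highest under the Th17 cocktail (10.52 and 9.38). Under the Th9 cocktail it read 8.31 and 5.33, and under the Th1 cocktail 4.92 and 5.24. Il17a, the Th17 cytokine, ran from 6.98 to 7.82 in APC alone, inside the PBAB range of 5.41 to 11.85. It was not called, and its difference of -0.38 turned to 0.43 after new quantile normalization.

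Genes of cell division were lower in APC alone. Of 28 mitosis genes tested 22 were called, all lower (median -2.73). Ccnb2, cyclin B2, which activates the mitotic kinase, read 4.69, 4.78 and 5.18 in APC alone and 8.11, 9.77 and 10.23 as the lowest, median and highest value in PBAB. It was at least 22.2-fold lower (adjusted p = 3.5e-06). Cdk1, that kinase, was lower by -3.93 ± 0.42, Cdca5, the cohesin protector sororin, by at least 14.2-fold and Birc5, survivin of the chromosomal passenger complex, by -4.17 ± 0.40. Cenpa, the histone of centromeres, was lower by -5.02 ± 0.40, or -2.31 with all probe sets averaged. Tpx2, Kif23 and Aurka, also of the spindle, each had another probe set with a difference of the other sign (up to 2.34, 1.75 and 1.16, not tested). Mki67, which encodes the proliferation antigen Ki-67, read 7.91, 8.65 and 8.47 against 8.55 to 11.17, overlapped, and was not called (-1.80 ± 0.44, adjusted p = 0.091).

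Many promoters of mitosis genes share a layout of repeated CCAAT boxes with a cell cycle homology region (CHR), a layout known from studies of genes that are switched on together before mitosis. The 250 bases before the start of Ccnb2 and Cdk1 are shown because these genes form the cyclin and kinase of one complex and were lower together. Both are RefSeq sequences of GRCm38.p6, on the minus strand, written 5′ to 3′, with CCAAT (or ATTGG on the other strand) and TTTGAA (or TTCAAA) in capitals.
Ccnb2, chr9:70421555-70421804: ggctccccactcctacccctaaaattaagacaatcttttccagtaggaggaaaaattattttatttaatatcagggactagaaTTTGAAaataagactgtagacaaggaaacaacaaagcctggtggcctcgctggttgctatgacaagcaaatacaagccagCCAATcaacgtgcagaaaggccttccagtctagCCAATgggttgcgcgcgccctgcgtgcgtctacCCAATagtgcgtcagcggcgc
Cdk1, chr10:69352913-69353162: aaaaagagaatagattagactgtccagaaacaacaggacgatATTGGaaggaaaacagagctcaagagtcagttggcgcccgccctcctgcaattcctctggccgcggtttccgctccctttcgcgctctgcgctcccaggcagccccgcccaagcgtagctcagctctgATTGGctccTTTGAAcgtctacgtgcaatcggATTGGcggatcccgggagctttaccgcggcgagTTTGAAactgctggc
Ccnb2 held 3 CCAAT boxes, each 33 bases from the next, and Cdk1 held 3, the last 2 of them 32 bases apart. The TTTGAA of Ccnb2 lay 167 bases before the start, upstream of all its CCAAT boxes (87, 54 and 21). In Cdk1 TTTGAA lay at 71 and 15, with CCAAT boxes at 208, 80 and 48. The 2 promoters thus differ in this order, and whether any of these TTTGAA matches acts as a CHR was not tested. Of 27 promoters that matched 25 genes of the mitosis list, 20 (74.1%) held CCAAT on either strand and 13 (48.1%) held at least 2. Over all 32851 promoters of the same length the shares were 33.8% and 10.1%. TTTGAA was in 11 of the 27 (40.7%) and in 15.99% of all. The CCAAT and TTTGAA matches do not overlap each other in these sequences, and a match is a description of letters, not of binding.

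DNA replication genes were lower in 18 of 28 tested and higher in 1 (median -2.11). Mcm3, a subunit of the replicative helicase, read 5.31, 5.43 and 5.55 in APC alone and 8.65 to 10.09 in PBAB (-3.95 ± 0.28, or -2.38 with all probe sets averaged). Mcm4 and Mcm6 of the same helicase were lower by -3.76 and -4.59, and Dut, which keeps uracil out of DNA, by -4.47 (-2.63 averaged). The 1 replication gene called higher was Fen1, a flap endonuclease, at 1.42 ± 0.17, but another of its probe sets differed by -2.64.

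Metabolic groups of growing cells were lower too. Glycolysis genes were lower in 12 of 13 tested (median -2.93; 6 lower and -1.48 after new quantile normalization). Hk2, hexokinase 2, read 7.48, 7.76 and 7.34 in APC alone and 10.64, 10.99 and 11.32 as the lowest, median and highest value in PBAB (-3.47 ± 0.18, adjusted p = 3.1e-07, or -2.12 after new quantile normalization). Slc2a1, the glucose transporter GLUT1, was lower by -4.15 ± 0.31 and Pfkp, platelet phosphofructokinase, by -4.04 ± 0.31 (-2.52 after that normalization). Slc16a1, a lactate carrier, was lower by -3.05 ± 0.18, but its other probe sets did not follow: 1 of them differed by 1.15, and the average over its probe sets was -0.95.

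Of 18 genes for amino acid uptake and the ATF4 response 15 were lower and 1 higher (median -2.82; 9 lower after new quantile normalization). Slc38a2, a transporter of neutral amino acids, was lower by -4.50 ± 0.23 (-1.96 averaged), Psph, of serine synthesis, by -4.28 ± 0.27, Asns, asparagine synthetase, by -3.81 ± 0.25 and Mthfd2, of mitochondrial folate metabolism, by -3.66 ± 0.28 (-2.43 after new quantile normalization). The 1 gene that was higher was Slc7a11, the cystine importer (at least 2.36-fold), at a level under the receptor background. Cholesterol synthesis was lower in 16 of 17 tested (median -3.13). Fdft1, squalene synthase, read 6.64, 6.71 and 7.18 in APC alone and 10.36 to 11.37 in PBAB (-3.99 ± 0.24, or -1.54 averaged). Sqle, squalene epoxidase, was lower by -3.14 ± 0.23. Ribosome biogenesis was lower in 14 of 21 tested (median -2.26; 6 lower and -0.78 after new quantile normalization), with Nop2 and Nop58, both nucleolar proteins, at -3.32 ± 0.25 and -4.30 ± 0.39.

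Radiation activates p53, and of 14 genes tested that p53 is known to induce, 8 were called at day 4, all lower in APC alone. The median of -1.75 came to -0.05 after new quantile normalization, where 5 were lower and 1 higher. Pmaip1, the death inducer Noxa, read 5.29, 6.25 and 5.96 in APC alone and 9.05 to 10.09 in PBAB (-3.80 ± 0.26). Zmat3, an RNA-binding p53 target, was lower by -2.84 ± 0.20 and Fas, a death receptor, by -2.49 ± 0.27. Sesn1, a stress-response protein, was lower by -2.95 ± 0.24, with another probe set at 1.15. No unirradiated splenocyte sample was analysed here, so irradiated and unirradiated splenocytes were not compared.

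Of genes induced by cytokines, the interferon-gamma group had 4 of 12 tested genes called, all lower (33.3%, median -0.97). Over all genes tested 14.8% were higher and 35.5% lower, so this count does not stand out. Gbp2, a guanylate-binding protein, was at -3.96 ± 0.31 and Socs1, a feedback inhibitor, at -3.05 ± 0.35. The type I interferon group gave 3 higher (14.3%) and 2 lower (9.5%) of 21 tested (median 0.40, and -0.02 when centred). Rsad2, the antiviral protein viperin, was higher by 2.38 ± 0.20 (3.79 after new quantile normalization) and above the receptor background, while Ifi35, an interferon-induced leucine zipper protein, was lower by -4.74 ± 0.23 (-3.05 averaged). The STAT3 group was lower in 5 of 9 tested and higher in 1 (median -2.74), with Socs3, another feedback inhibitor, at 5.77, 4.70 and 6.60 against 9.03 to 12.11 (-4.95 ± 0.63). The 1 higher member had an APC mean under the receptor background. The TGF-beta group had 1 higher (16.7%) and 2 lower (33.3%) of 6 tested, near the shares over all genes tested. Its median of -1.06 turned to 0.25 after new quantile normalization. Its higher member was Ltbp1, a binding protein of latent TGF-beta (at least 6.07-fold). Skil, a repressor of the pathway, was lower (-1.75 ± 0.34, adjusted p = 0.049), but differed by 0.14 after new quantile normalization and lost its call in 10 further alternatives. The other lower member, Pmepa1, a membrane protein that limits the pathway, overlapped PBAB and lost its call in 13 alternatives (-2.38 ± 0.62, adjusted p = 0.048).

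In the HA cultures, which held splenocytes and T cells together, levels of macrophage genes differed between arrays. Lyz1 ran from 6.29 to 11.87 over the 6 HA arrays and Csf1r from 5.10 to 7.69. Irf4 ran from 9.68 to 11.51 in HA, and Ccnb2 from 10.71 to 11.21. No test was made, since a comparison of HA with PBAB would share the PBAB arrays.

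The 3 APC alone arrays were then compared with each other. There was 1 array per cocktail, so no difference among them has a replicate check, and genes were named by size: more than 2 on the log2 scale (4-fold) above or below both of the others, out of 18194 genes. As a scale, pairs of APC alone arrays differed by more than 2 in 46 genes (Th1 and Th9), 63 (Th1 and Th17) and 40 (Th9 and Th17), while the 2 PBAB replicates of a cocktail differed so in 8, 13 and 8. The APC alone pairs cross cocktails and these PBAB pairs do not, so the scale does not measure the spread between APC alone arrays of a cocktail. The counts of genes above both of the other arrays, 1, 11 and 9 in the Th1, Th9 and Th17 arrays, came to 43, 60 and 59 after new quantile normalization.

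In the Th9 array, the cocktail with IL-4, 11 genes (0.0605% of genes) stood above both of the others and 1 (0.0055%) below. Chil3, the chitinase-like protein Ym1, read 13.79 in the Th9 array, 4.45 in the Th1 array and 7.19 in the Th17 array, a 96.6-fold gap to the nearer of these. Arg1, arginase 1, which splits arginine into ornithine and urea, read 12.39, 4.99 and 9.23 in the same order. Retnla, a small secreted protein also known as Fizz1 or RELM-alpha, read 9.01, 6.04 and 5.82. These 3 genes are among the best known that IL-4 induces in mouse macrophages.

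Chemokines came with them. Ccl24, eotaxin-2, which draws eosinophils, read 10.11 in the Th9 array and 7.30 and 6.59 in the Th1 and Th17 arrays. Ccl9 read 10.86 against 6.78 and 7.95, and Ccl6 13.75 against 10.27 and 11.66. Ear3, a ribonuclease of the eosinophil family, Tmem26, a membrane protein, Acp5, tartrate-resistant acid phosphatase, Scd1, stearoyl-CoA desaturase, and Bex1 completed the list, with gaps of 2.86, 2.29, 2.25, 2.63 and 3.08. Bex1, at 6.41 in the Th9 array, stayed under the receptor background. Ercc3, a helicase of transcription and repair, was the 1 gene below, at 4.61 against 7.09 and 6.63.

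Over the IL-4-induced list as a whole, 11 of 15 genes on the array were highest in the Th9 array and 7 of them by more than 1, while 31.7% of all 18194 genes were highest there. Also highest in the Th9 array were 9 of 13 dendritic cell genes and 10 of 18 genes for amino acid uptake, 2 and 0 of them by more than 1. Of the 15 IL-4-induced genes 7 were above the receptor background in the Th9 array, against 2 in the Th1 array and 3 in the Th17 array. Mrc1, the mannose receptor, read 8.34 in the Th9 array against 6.52 and 6.38. Against PBAB 3 of the 10 tested genes of this list were higher, 2 were lower and the median difference was 1.5; 4 of the 10 had passed the filter through 1 group only. Mrc1, Mmp12 and Tfec, a transcription factor of macrophages, were at least 4.02-fold, 20.8-fold and 2.80-fold higher. Of these only Mmp12 had an APC mean above the receptor background. Cish, a feedback inhibitor, and Pdcd1lg2, the ligand PD-L2, were lower (-3.25 and -2.23). Of the macrophage list 10 of 25 genes were highest in the Th9 array and 12 were lowest there, and its median level was 8.67, 8.61 and 8.57 in the Th1, Th9 and Th17 arrays.

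IL-4 acts through STAT6, which is known to bind TTC and GAA with 4 bases (any of A, C, G or T) between them. The 250 bases before the start of Retnla are shown because Retnla is one of the genes high in the Th9 array and its promoter holds this spacing, with TTC, the 4 bases between and GAA in capitals (RefSeq, GRCm38.p6, plus strand, 5′ to 3′).
Retnla, chr16:48842359-48842608: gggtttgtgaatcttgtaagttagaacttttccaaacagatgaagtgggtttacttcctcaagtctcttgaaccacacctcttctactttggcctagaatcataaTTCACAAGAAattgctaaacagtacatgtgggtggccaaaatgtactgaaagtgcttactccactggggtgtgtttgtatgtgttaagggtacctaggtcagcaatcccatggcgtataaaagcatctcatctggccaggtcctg
The match began 145 bases before the start. Of 12 promoters that matched 11 genes of the IL-4-induced list, 4 (33.3%) held the motif, which reads the same on both strands, and 5.85% of all promoters did.

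In the Th17 array 9 genes (0.0495%) stood above and 2 (0.011%) below. S100a8 and S100a9, the calcium-binding pair that neutrophils carry in bulk, read 10.17 and 9.24 in the Th17 array. They were at 5.87 and 5.50 in the Th1 array and 6.28 and 6.47 in the Th9 array, under the receptor background. Against PBAB they were at least 5.15-fold and 3.98-fold higher. Without the Th17 array the differences were 1.92, still called, and 1.44, no longer called (adjusted p = 0.11). Pf4 read 10.62 against 8.18 and 8.27. Jchain, the joining chain of secreted antibodies, read 8.21 against 4.87 and 5.85, and Igha, the IgA heavy chain, 9.69 against 7.61 and 7.35. H2az2, a histone variant, Lbr, the lamin B receptor, Hps1, of lysosome-related organelles, and Rell2, a member of the TNF receptor-like RELT family, were above by 2.01 to 2.09. The 2 genes below were Aurkb, a mitotic kinase (3.99 against 6.07 and 6.29), and Mmp12, macrophage elastase (7.71 against 9.72 and 10.92).

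In the Th1 array 1 gene (0.0055%), Myo18a, an unconventional myosin, stood above and 11 (0.0605%) below. Arg1 and Chil3, which were highest in the Th9 array, were 2 of the 11. Of the T cell identity list, Cd3g was among them. Cd3g, a chain of the receptor complex, read 5.28 in the Th1 array, 8.08 in the Th9 array and 8.87 in the Th17 array, against 10.82 to 11.92 in PBAB. Genes outside that list included Coro1a, the actin-binding coronin 1A, at 5.90, 8.39 and 9.33, and Gzmb, granzyme B, at 7.19, 9.59 and 10.51. Srgn, the proteoglycan that packs granules, read 10.03, 12.34 and 12.07. AW112010, Scd2, Ccr1, Tfpi2 and Sdf4 were below by 2.61, 3.06, 2.29, 2.17 and 2.01.

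The T cell identity list had a median level of 6.06 in the Th1 array, 7.16 in the Th9 array and 7.47 in the Th17 array of APC alone, against 10.32 to 10.90 in PBAB. The level was lowest in the Th1 array in 14 of 18 genes, while 34.8% of all genes were lowest there. Above the receptor background of the array were 6, 4 and 10 of the 18, which is not the order of the medians. Glycolysis genes were ordered likewise, at medians of 8.37, 9.52 and 10.11, and lowest in the Th1 array in 11 of 13. Also lowest there were 16 of 28 mitosis, 18 of 28 replication and 13 of 21 ribosome biogenesis genes. The same held for 12 of 18 amino acid and 11 of 17 cholesterol genes, so a low Th1 array was not particular to T cell genes. Medians in the Th1, Th9 and Th17 arrays had another order for ribosome biogenesis (7.35, 7.61 and 7.39) and amino acid genes (6.43, 7.19 and 6.93). Members above the receptor background numbered 4, 4 and 6 for mitosis and for replication, and 2, 3 and 5 for cholesterol. For ribosome biogenesis they numbered 8, 8 and 10, and for amino acid genes 4, 5 and 6. The actin 3' probe set had the order of the T cell medians, at 12.09, 12.46 and 12.96, and actin 3' minus 5' was highest in the Th1 array, at 0.99. Their part in these differences was not tested, and with 1 array each the cocktail, the splenocyte preparation and the array cannot be told apart.

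**Figure D5:**
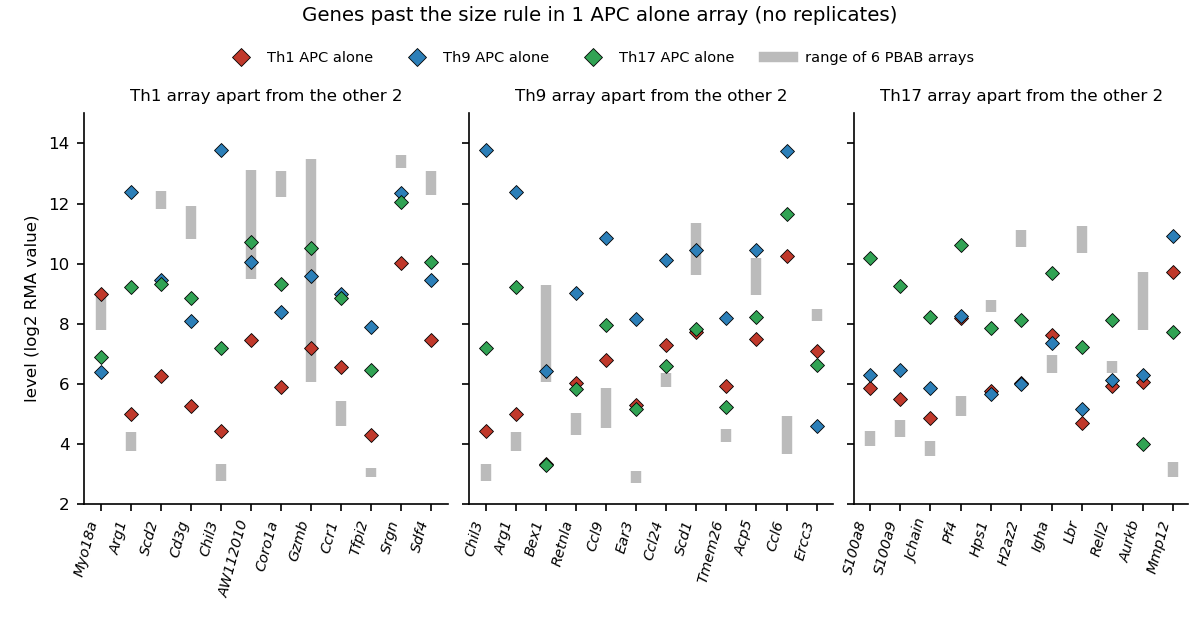
Level (log2 RMA value) of the genes past the size rule in the Th1, Th9 and Th17 arrays of APC alone, 1 array each, with the range of the 6 PBAB arrays as a grey bar. Chil3 and Arg1 spread over 9.34 and 7.40 log2 units among the 3 arrays, and S100a8 and S100a9 are high in the Th17 array alone.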

How the data were processed

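Gene expression was measured on 15 arrays, of which 9 were compared. The deposited log2 values had been made by the authors with RMA, per the submitters' processing notes; the version and the set of arrays normalized together are not given in the sources used here. The interquartile ranges differed between APC alone and PBAB arrays, so the deposited values do not share 1 distribution. Of 45101 probe sets, 34958 carried 1 gene symbol in a 2016 annotation, 932 several and 9211 none. For each of 18194 genes the probe set of highest average level on the 15 arrays was used. Genes above the 40th percentile (5.07) in at least 3 of the 9 arrays were tested with limma 3.58.1 in R 4.3.3 (lmFit, then treat with a minimum fold of 2, no covariate). P-values were adjusted by Benjamini-Hochberg over all 14692 genes. Scan signal and background were not analysed here, and the number of arrays limits the precision.

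Named genes were the 10 largest calls each way without overlap and with both means above the threshold, the 8 largest with 1 mean below it, up to 4 called members of each list by p, and defining genes of the cell types. In APC alone arrays compared with each other, the 8 genes farthest above and the 4 farthest below were named. The other genes past that size, the uncalled members Cebpb, Aif1 and Trat1, and Fen1, Slc7a11, Pdcd1lg2 and Vmn1r148 were chosen after their values were seen. Of 509 genes in 33 lists, 465 matched the array. The compared arrays and the lists were chosen with earlier results of these data known. For an "at least" fold, array values below the threshold were raised to it. On simulated data for this comparison (14692 genes), 14%, 64%, 98% and 100% of 50 genes were called at log2 changes of 1.5, 2, 3 and 4, with 0 unchanged genes called. Only 50 genes were changed at each size, while 50.3% of genes were called in the data. The adjusted p was therefore stricter in the simulation, and its shares do not carry over. Unchanged genes had no true difference and the test required over 2-fold, so few false calls could arise. Alternatives covered the call rule, the fit on 15 arrays, the cocktail as a covariate, the scaling, the probe sets, the filter, array weights, the variance trend, each array left out and each cocktail alone. The receptor background was added after the data had been seen.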

Additional observations from a re-analysis of the deposited data

Results flagged for a closer look

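Of 174 sets of 6 PBAB values examined, 10 held an array that stood apart from the other 5, where chance gives about 1 in 20 groups. In Th17 replicate 2 these were Ccnb2 at 8.11, Lyz1 at 5.31 and Ppp2r5c at 10.39. In Th9 replicate 2 they were Fcgr3 at 5.89, Igha at 6.94, Lta at 10.09, Pf4 at 5.59 and Wfdc17 at 6.19. In Th1 replicate 2 they were Ngp at 5.20 and Tyrobp at 5.77. All 10 values belonged to a second replicate, and bioB, the spiked control, read 10.70 to 11.05 in the second replicates and 9.49 to 9.52 in the first. The part of this array difference was not tested.

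A few genes differed from PBAB in opposite directions by cocktail, and the difference between cocktails was not tested. Il17a was 2.24 higher in APC alone than in PBAB under the Th1 cocktail and 1.47 higher under the Th9 cocktail, but differed by -4.85 under the Th17 cocktail. Il9 was 1.64 higher under the Th1 cocktail and differed by -3.91 under the Th17 cocktail. Myo18a differed by 0.15, -2.10 and -1.21 under the Th1, Th9 and Th17 cocktails.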

How the results depend on the processing

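Without a minimum fold 5458 genes and 151 list members were called higher, with centred arrays 1022 genes, and with the receptor background 722 genes and 58 list members. Leaving out 1 array gave 1951 to 2225 higher and 5037 to 5250 lower genes, and 91 to 100 higher and 150 to 167 lower list members. For named genes 3292 values were recomputed: 3151 kept direction and call, 110 lost the call, 21 gained it and 10 turned direction. New quantile normalization turned Cd3e (0.083), Cd4 (0.20), Skil (0.14) and Il17a (0.43). Ifng turned under the Th17 cocktail alone (0.28), Il9 under the Th1 cocktail alone (1.64), and Il17a under the Th1 (2.24) and Th9 (1.47) cocktails alone, while Il17a ran from -0.83 to 0.46 with 1 array left out. For APC alone arrays by cocktail, new quantile normalization gave 43 genes above and 94 below (Th1), 60 and 43 (Th9), and 59 and 48 (Th17). A size over 1 gave 110 and 278, 160 and 146, and 155 and 191. Averaging probe sets gave 7 below (Th1) and 1 below (Th17), and centring gave 1 below (Th17). Actin 3' minus 5' differed by 0.621 to 0.750 with 1 array left out (exact permutation p = 0.0714 without any 1 APC alone array, the smallest that 2 against 6 allow, and 0.0357 without a PBAB array). For Gapdh the difference was 0.266 after new quantile normalization (exact permutation p = 0.0238) and 0.0399 to 0.222 with 1 array left out. The causes of these changes were not tested. No paired analysis was possible because the APC alone arrays carry no replicate number. The cocktail, which both groups share, could be used as a block: as a covariate it gave 2185 higher and 5335 lower genes, and of the named genes Ifng gained its call and no other changed. Each APC alone array stands alone for its cocktail, so levels near the receptor background and cocktail differences have little support from replicates.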
